A study of Homo sapiens with 6 samples.

Results

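The S100 proteins examined here are 10 small calcium-binding proteins, encoded by S100A2, S100A4, S100A6, S100A8, S100A9, S100A10, S100A11, S100A14, S100A16 and S100P. Each was taken from the deposited value table as the probe set (a group of probes read out as 1 value) that the platform annotation assigns to that single gene symbol, and all 10 genes had exactly 1 such probe set among the 18417 genes tested. The cells were H358, a cultured line established from a human non-small cell lung carcinoma. In the TwistER group (3 arrays), H358 stably expressed TwistER, by its name a fusion of the transcription factor Twist and an estrogen receptor domain, a design in which 4-hydroxytamoxifen (4OHT) switches the factor on. In the GFP group (3 arrays), H358 stably expressed green fluorescent protein. Both groups received 100 nM 4OHT for 12 days and neither was measured without it, so an effect of activating the factor and any other difference between the lines cannot be told apart. The titles place the TwistER arrays after, and the GFP arrays before, EMT (epithelial-mesenchymal transition, in which epithelial cells take on a migratory, fibroblast-like form). The labels do not give the promoter of the constructs, nor whether a line was 1 clone or a pool, and call the replicates biological without saying what was separate, so each p-value reflects only the scatter among the 6 samples.

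S100 proteins carry a pair of EF hands, helix-loop-helix elements that bind calcium. Most form dimers, and calcium opens a surface through which they grip target proteins such as annexins, cytoskeletal motors or kinases. Some are also secreted and act on cell surface receptors, among them the receptor for advanced glycation end products (AGER) and TLR4. Most of the human genes lie side by side on chromosome 1, interleaved with the genes of the epidermal barrier. In carcinomas S100A4 is a widely used marker of EMT and of metastatic cells, while S100A2 and S100A14 are known from stratified and glandular epithelia.

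Values are log2 expression, and every difference is TwistER minus GFP. Rose and fell are used of genes whose p in limma was under 0.05 after Benjamini-Hochberg adjustment over all 18417 genes. Of the 10 S100 genes, 3 fell in TwistER cells (S100A2, S100A14 and S100A16), 1 rose (S100A4) and 6 did not pass. Over all genes tested, 4.11% fell, 4.72% rose and 8.83% were called in either direction. In limma, 3969 of the 18417 genes had an unadjusted p under 0.05, the background for such counts below. The TwistER and GFP arrays did not overlap in 5 of the 10 S100 genes, against 28.4% of all genes. The median difference of the 10 was 0.03, beside 0.01 for all genes, and their differences ran from -1.85 to 0.64. In bulk RNA of this kind, fewer cells that express a gene and less RNA per cell cannot be told apart.

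The 6 arrays correlated within groups at r = 0.982 to 0.996 over genes, and GFP replicate 1 stood apart from GFP replicates 2 and 3, with which it correlated at 0.982, while those correlated with each other at 0.996. Precision is limited by the 3 arrays a group. Of 10 measured epithelial markers, 8 fell and 0 rose, with CDH1 (E-cadherin) at -4.99 ± 0.23 (SE), GRHL2 at -4.40 ± 0.18, RAB25 at -3.95 ± 0.30, EPCAM at -3.28 ± 0.16, KRT19 at -3.22 ± 0.15 and CLDN7 at -1.65 ± 0.22. The mean level of these 10 markers was 6.21 to 6.37 in the TwistER arrays and 8.32 to 8.97 in the GFP arrays, with GFP replicate 1 at the low end. Of 11 markers of lung epithelium, the organ of the line, 0 rose or fell in limma and 0 had an unadjusted p under 0.05. The mean level of these lung markers was 4.49 to 4.60 in the TwistER arrays and 4.53 to 4.58 in the GFP arrays. That is below the median of every array (4.95 to 5.03), where a low level and background are hard to separate and a fall could hardly show.

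S100A2, a homodimeric S100 protein of the nucleus and cytoplasm that is abundant in basal and squamous epithelia, showed the largest difference of the 10. It read 8.88, 8.86 and 8.57 in TwistER replicates 1 to 3, against 10.55, 10.71 and 10.59 in GFP replicates 1 to 3. All 3 TwistER arrays lay at least 1.67 below every GFP array, and GFP replicate 1 was not set apart from the other GFP arrays for this gene. S100A2 fell 3.60-fold (-1.85 ± 0.12 SE, limma adjusted p = 6.30e-05, 95% interval 2.96-fold to 4.38-fold lower). That difference was the 49th lowest of the 18417 genes. The call held with each of the 6 arrays left out, with differences from -1.90 to -1.75 and a highest limma adjusted p of 0.000771.

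S100A14, a member found in many epithelia that binds calcium weakly, was also lower in TwistER cells. S100A14 read 4.78, 5.04 and 5.09 in TwistER replicates 1 to 3, against 5.44, 6.89 and 7.11 in GFP replicates 1 to 3. The groups did not overlap, but GFP replicate 1 lay only 0.35 above the highest TwistER array and 1.56 below the mean of the other GFP arrays. S100A14 fell 2.85-fold (-1.51 ± 0.38 SE, limma adjusted p = 0.0440, 95% interval 1.56-fold to 5.19-fold lower). Its TwistER arrays averaged the 49.4 percentile of the probe sets, the lowest at 46.2, where a low level and background are hard to separate. The SD of S100A14 was 0.17 in the TwistER arrays and 0.91 in the GFP arrays (n = 3 each).

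S100A16, a broadly expressed member whose gene lies between S100A2 and S100A14, followed the same arrays. It read 6.35, 6.50 and 6.33 in TwistER replicates 1 to 3, against 6.81, 7.79 and 7.78 in GFP replicates 1 to 3. Every TwistER array was below every GFP array, with GFP replicate 1 nearest to them. S100A16 fell 2.10-fold (-1.07 ± 0.25 SE, limma adjusted p = 0.0316, 95% interval 1.42-fold to 3.10-fold lower).

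The calls of S100A14 and S100A16 depended on which arrays were used. Without GFP replicate 1, S100A14 differed by -2.03 (limma adjusted p = 0.000129) and S100A16 by -1.39 (limma adjusted p = 0.000178). Without any other single array both calls were lost, with limma adjusted p from 0.106 to 0.150 for S100A14 and from 0.0905 to 0.124 for S100A16, while the differences stayed at -1.57 to -1.19 and -1.12 to -0.90. The low position of GFP replicate 1 was shared with 9 of the 10 measured epithelial markers, and EPCAM was the exception. Over the 10 markers, the median deviation from the mean of GFP replicates 2 and 3 was -0.64, beside -0.01 for all genes. KRT18 deviated by -1.25, CDH1 by -0.83 and EPCAM by 0.50. The deviation of S100A14 was the 27th lowest of all 18417 genes and that of S100A16 the 349th, whereas S100A2 deviated by -0.10. Whether the state of the cells on that array set the size of the S100A14 and S100A16 differences was not tested.

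**Figure D1:**
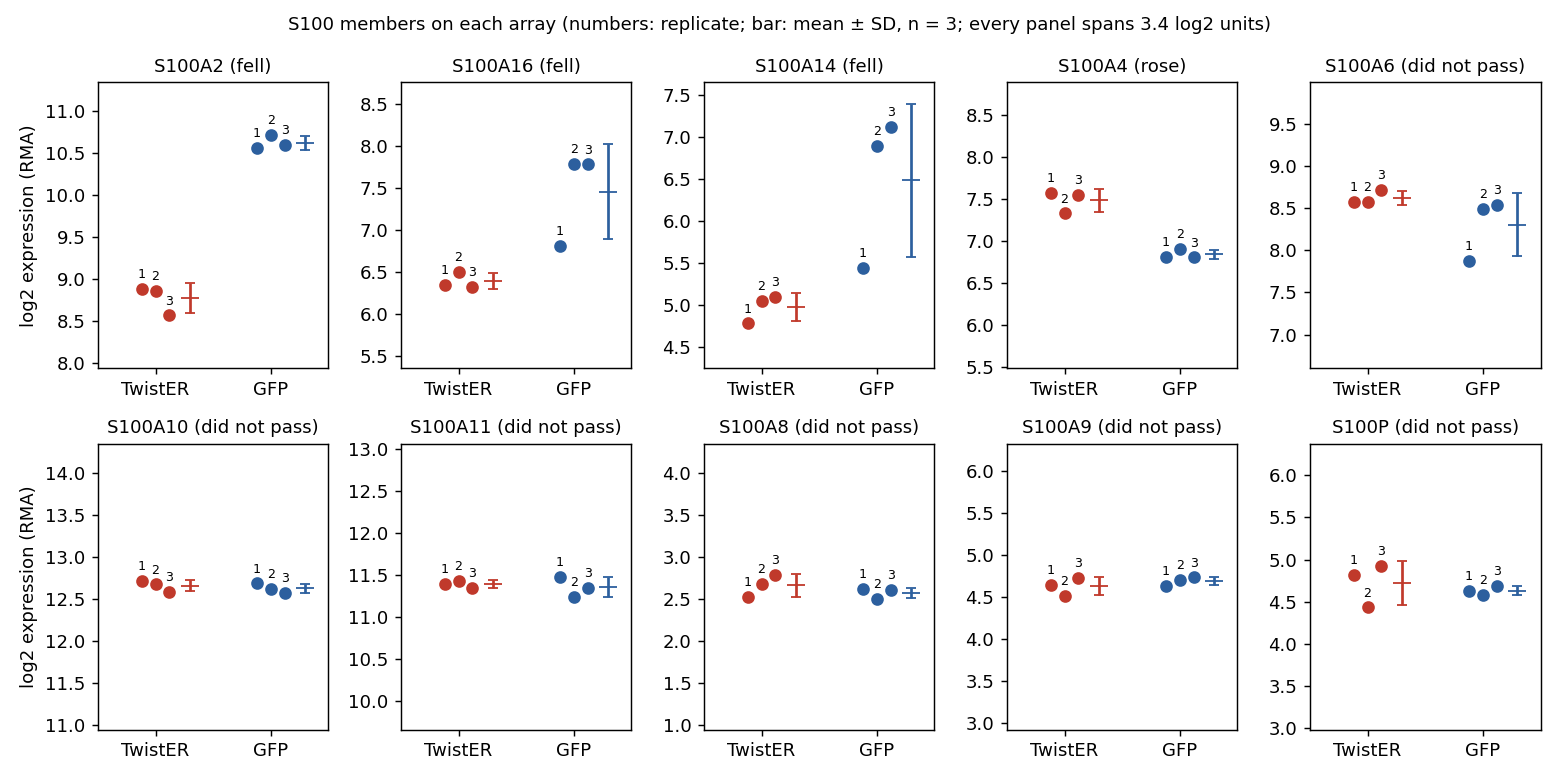
Log2 expression (vertical axis, RMA values) of the 10 S100 genes on the 3 TwistER arrays (red, left) and the 3 GFP arrays (blue, right), each point 1 array with its replicate number and each bar the mean ± SD. S100A2 is lower and S100A4 higher on every TwistER array with narrow spread, S100A14 and S100A16 are lower with GFP replicate 1 close to the TwistER arrays, and the other 6 genes did not pass.

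S100A4, the member that binds non-muscle myosin and is used as a marker of fibroblasts and of EMT, was the 1 member that rose. It read 7.57, 7.32 and 7.55 in TwistER replicates 1 to 3, against 6.81, 6.90 and 6.80 in GFP replicates 1 to 3. The groups were separated by 0.42, and the 3 GFP arrays spanned 0.10. S100A4 rose 1.56-fold (0.64 ± 0.11 SE, limma adjusted p = 0.00904, 95% interval 1.30-fold to 1.86-fold higher). The call was lost without TwistER replicate 1 (0.60, limma adjusted p = 0.0529) and held without each other array, with differences up to 0.72. Fibroblasts are a known source of S100A4, and 4 of 12 fibroblast markers rose and 1 fell. COL3A1 rose by 2.13 ± 0.15 (SE), PDGFRA by 1.01 ± 0.13, DPT by 0.87 ± 0.17 and COL1A1 by 0.54 ± 0.13, whereas LUM fell by 1.63 ± 0.18. The other 7 markers, DCN, THY1, FAP, PDGFRB, COL1A2, POSTN and TCF21, differed by -0.25 to 0.29 and did not pass. DCN (2.37 in both groups) and POSTN (2.56 in TwistER and 2.27 in GFP) were near the bottom of the scale. FAP and TCF21 averaged 3.43 and 3.41 in TwistER, below the 25th percentile of all values (3.468), and above it in GFP. The mean level of the 12 markers was 4.58 to 4.60 in the TwistER arrays and 4.32 to 4.39 in the GFP arrays, and their part in the S100A4 difference was not tested.

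S100A6, also called calcyclin, which binds the ubiquitin ligase adaptor CACYBP and several annexins, did not pass. It read 8.58, 8.58 and 8.72 in TwistER replicates 1 to 3, against 7.88, 8.50 and 8.54 in GFP replicates 1 to 3. The TwistER arrays were above all GFP arrays, but by only 0.03, and GFP replicate 1 was the array far from the rest. The difference of S100A6 was 0.32 ± 0.18 SE (limma adjusted p = 0.373, 95% interval -0.09 to 0.73), and 0.10 without GFP replicate 1 (limma adjusted p = 0.553).

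S100A10 and S100A11, partners of annexins A2 and A1, showed no difference that passed. S100A10, which has lost the ability to bind calcium and forms a heterotetramer with annexin A2 that binds plasminogen at the cell surface, read 12.72, 12.68 and 12.59 in the TwistER arrays, against 12.69, 12.62 and 12.58 in the GFP arrays. The groups overlapped, and the S100A10 difference was 0.03 ± 0.10 SE (limma adjusted p = 0.906), with a 95% interval from 1.15-fold lower to 1.20-fold higher. S100A11 read 11.40, 11.44 and 11.35 in TwistER replicates 1 to 3, against 11.48, 11.25 and 11.34 in GFP replicates 1 to 3. Its difference was 0.04 ± 0.11 SE (limma adjusted p = 0.899, 95% interval from 1.16-fold lower to 1.22-fold higher). S100A10 stood at the 99.8 to 99.9 percentile of all probe sets on every array and S100A11 at the 98.0 to 98.5 percentile, positions that depend on the probes as well as on the transcript.

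S100A8 and S100A9, which pair to form calprotectin, the antimicrobial and inflammatory protein of neutrophils and stressed epithelium, were dim in both lines. S100A8 read 2.52, 2.68 and 2.79 in the TwistER arrays, against 2.62, 2.51 and 2.61 in the GFP arrays, at the 11.04 to 14.61 percentile of the probe sets, where background light compresses differences. S100A9 read 4.65, 4.52 and 4.73 in the TwistER arrays, against 4.63, 4.71 and 4.74 in the GFP arrays. Neither pair of groups separated, with differences of 0.09 ± 0.11 SE for S100A8 (limma adjusted p = 0.744, 95% interval -0.17 to 0.35) and -0.06 ± 0.11 SE for S100A9 (limma adjusted p = 0.820, 95% interval -0.31 to 0.19). S100P, a member first isolated from placenta that binds ezrin and is often abundant in adenocarcinomas, read 4.81, 4.43 and 4.92 in the TwistER arrays, against 4.62, 4.57 and 4.68 in the GFP arrays. The TwistER arrays lay on both sides of the GFP arrays, and the S100P difference was 0.10 ± 0.14 SE (limma adjusted p = 0.783, 95% interval -0.23 to 0.42). S100A9 and S100P stood between the 39.9 and 47.9 percentiles of the probe sets, where a low level and background are hard to separate.

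Myeloid cells, the main known source of calprotectin, and squamous cells, a source of S100A2, S100A8 and S100A9, were looked for through their markers. Of 12 myeloid markers 0 rose or fell in limma, with 0 at an unadjusted p under 0.05, a mean level of 4.12 to 4.16 in the TwistER arrays and 4.05 to 4.13 in the GFP arrays, and 4 markers below the 25th percentile of all values in both groups. PTPRC, the leukocyte phosphatase CD45, had the largest difference of that list (0.30 ± 0.17 SE, limma adjusted p = 0.377). Of 10 measured squamous and basal markers 0 rose or fell in limma and 2 had an unadjusted p under 0.05. Their mean level was 3.57 to 3.74 in the TwistER arrays and 3.62 to 3.71 in the GFP arrays. KRT6A, KRT6B, KRT17 and TP63 were listed too but not measured, because no probe set carried any of these symbols alone. The largest difference among the 10 measured was in DSC3, a desmosomal cadherin (0.42 ± 0.20 SE, limma adjusted p = 0.283). DSC3 was near the bottom of the scale, averaging 2.61 in TwistER and 2.19 in GFP. Of the 10, 6 averaged below the 25th percentile of all values in both groups. The 2 with an unadjusted p under 0.05 were the basal and stress keratins KRT14 and KRT16, both lower in TwistER cells without passing. KRT14 averaged 5.72 in TwistER and 5.99 in GFP (-0.27 ± 0.10 SE, limma adjusted p = 0.176). KRT16 averaged 5.33 in TwistER and 5.65 in GFP (-0.32 ± 0.14 SE, limma adjusted p = 0.217). KRT5, DSG3, SERPINB3 and SERPINB4 read 2.39 to 4.34 on average in both lines. The part of these markers in the S100A2 difference was not tested.

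The other S100 genes showed no difference that passed. Of 11 further S100 genes measured and S100PBP, a binding protein of S100P, 0 rose or fell in limma and 0 had an unadjusted p under 0.05. S100A13, a member exported with fibroblast growth factor 1, averaged 6.30 in TwistER and 6.32 in GFP (difference -0.03 ± 0.13 SE, limma adjusted p = 0.939). The largest differences in either direction were -0.25 ± 0.16 for S100A7, the skin protein psoriasin, and 0.19 ± 0.18 for S100A5, and S100A1, S100A3, S100A7A, the pseudogene S100A7L2, S100A12, S100B, S100G, S100Z and S100PBP lay between them. Of these 12 genes, 5 averaged below the 25th percentile of all values in both groups. In RefSeq the gene models of S100A4 and S100A5 overlap on the same strand. Those of S100A8 and S100A7A overlap on opposite strands, as do those of S100A13 and S100A1 and of S100A13 and CHTOP. The sources do not say whether probes fall in the shared part.

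**Figure D2:**
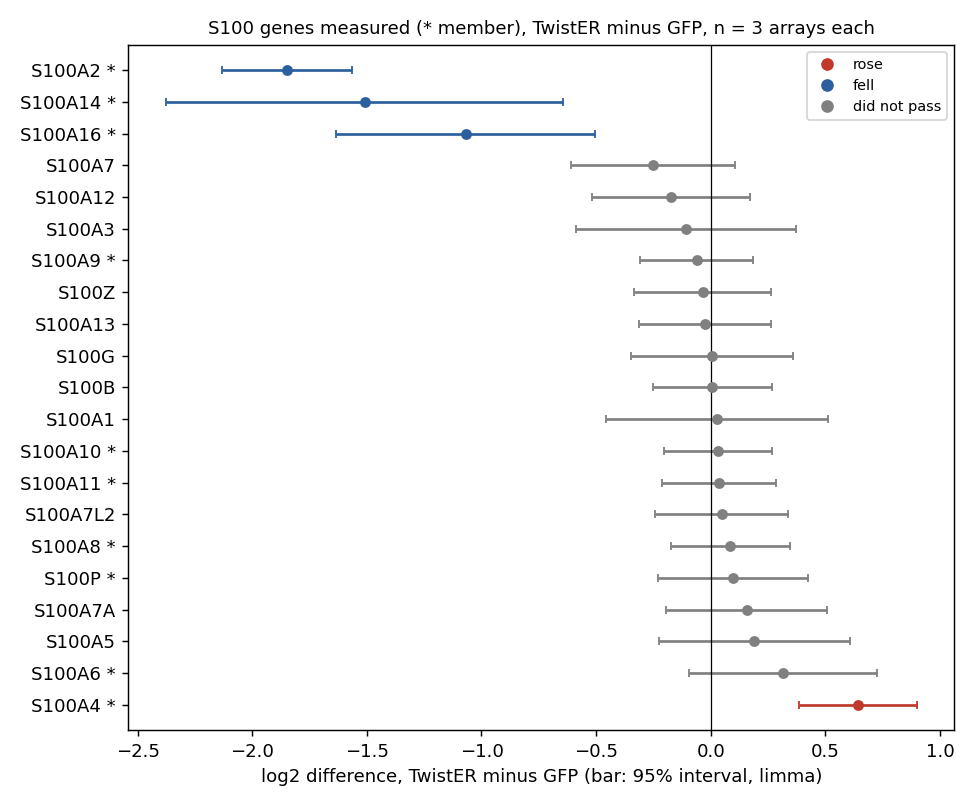
Log2 difference TwistER minus GFP (horizontal axis) of the 21 S100 genes measured, ordered from the lowest down to the highest, with members marked by an asterisk and 95% intervals from limma as bars (n = 3 arrays each). S100A2, S100A14 and S100A16 fell, S100A4 rose, and the intervals of the other 17 genes include 0.

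The members that fell were neighbours. Of the 10 genes, 9 lie on chromosome 1 and S100P on chromosome 4. In RefSeq order the measured genes at that end of the chromosome 1 cluster run S100A6, S100A5, S100A4, S100A3, S100A2, S100A16, S100A14, S100A13 and S100A1. The 3 genes that fell were consecutive, S100A4 was separated from them by S100A3 (-0.11 ± 0.21 SE, limma adjusted p = 0.838), and S100A13 on the far side did not pass. The region holds 17 measured S100A genes and, between the outermost of them, 43 other measured genes, of which 0 rose or fell in limma. Many of those 43 are barrier genes of the list that follows. Among 35 genes listed for the cornified envelope and its surroundings, 4 had an unadjusted p under 0.05. The largest difference was in SPRR2D, a small proline-rich envelope protein (-0.78 ± 0.24 SE, limma adjusted p = 0.0846). SPRR2D averaged 2.49 in TwistER and 3.27 in GFP, both below the 25th percentile of all values (3.468). The mean level of the 35 genes was 4.79 to 4.83 in the TwistER arrays and 4.75 to 4.78 in the GFP arrays. Of them, 5 averaged below that percentile in both groups, and in genes that dim a fall could hardly show. Of 6 measured fused-type S100 genes, large epidermal proteins that begin with an S100-like part, 0 rose or fell in limma. None had an unadjusted p under 0.05, with CRNN (cornulin) at 0.21 ± 0.18 SE. Their mean level was low too, at 3.78 to 3.89 in the TwistER arrays and 3.58 to 3.82 in the GFP arrays. Whether the position of the 3 genes has a part in their shared direction was not tested.

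**Figure D3:**
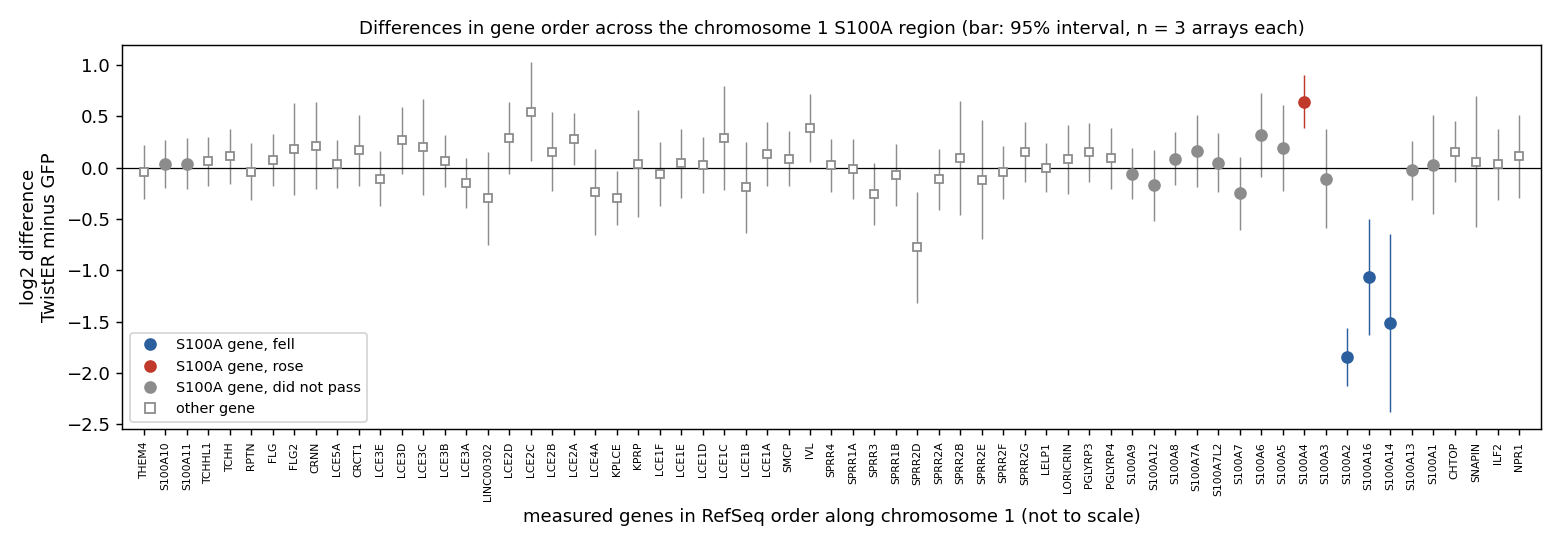
Log2 difference TwistER minus GFP (vertical axis) of measured genes in RefSeq order along chromosome 1 (horizontal axis, not to scale), with S100A genes as filled circles, other genes as open squares and 95% intervals as bars (n = 3 arrays each). The consecutive genes S100A2, S100A16 and S100A14 are the low points, S100A4 is the 1 gene that rose, and the barrier genes between S100A11 and S100A9 did not pass.

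Because S100A2 and S100A4 had the largest difference in each direction, their promoter windows are shown, from 250 bases before to 50 bases after each start that RefSeq gives (build GRCh38.p14, minus strand, written 5′ to 3′). Capitals mark matches to any of the 7 motifs searched on both strands, which were TGANTCA (AP-1), CATATG and CAGATG (E-boxes known for Twist), CACCTG (the E-box of SNAI and ZEB factors), AACCNGTT (GRHL), TTGCNNAA (CEBP) and the NF-kB motif, where N is any base. No match overlapped another in these windows. S100A2 has 2 listed starts. The S100A2 windows are chr1:153565795-153566094 and chr1:153563838-153564137, and the S100A4 window is chr1:153545757-153546056.
S100A2, upstream start: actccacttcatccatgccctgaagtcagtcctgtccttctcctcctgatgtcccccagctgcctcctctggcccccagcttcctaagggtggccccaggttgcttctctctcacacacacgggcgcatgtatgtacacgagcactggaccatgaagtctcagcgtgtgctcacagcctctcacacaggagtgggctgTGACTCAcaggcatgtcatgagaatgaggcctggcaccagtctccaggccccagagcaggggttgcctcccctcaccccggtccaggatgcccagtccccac
S100A2, downstream start: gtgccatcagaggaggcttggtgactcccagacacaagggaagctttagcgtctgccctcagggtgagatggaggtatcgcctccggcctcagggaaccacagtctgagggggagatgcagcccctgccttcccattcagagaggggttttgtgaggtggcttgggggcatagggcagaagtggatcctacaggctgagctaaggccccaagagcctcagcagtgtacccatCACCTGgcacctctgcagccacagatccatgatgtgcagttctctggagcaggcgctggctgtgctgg
S100A4: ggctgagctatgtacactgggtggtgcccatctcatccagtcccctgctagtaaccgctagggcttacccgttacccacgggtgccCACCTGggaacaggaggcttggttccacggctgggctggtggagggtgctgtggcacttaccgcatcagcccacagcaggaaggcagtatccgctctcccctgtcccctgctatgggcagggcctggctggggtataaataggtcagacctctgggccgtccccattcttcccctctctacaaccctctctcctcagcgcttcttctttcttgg

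The upstream S100A2 window held TGACTCA, a match to the AP-1 motif, at position -52 from the start, and AP-1 matches were in 7.71% of all 35116 promoter windows of the same length. The downstream S100A2 window held CACCTG at position -18, and the S100A4 window held it at position -164. The SNAI and ZEB motif occurred in 20.6% of all windows and in 10 of the 14 windows of the 10 members. Those 10 windows belong to 7 genes, S100A2, S100A4, S100A14, S100A16, S100A8, S100A9 and S100P, and the 3 windows of S100A8 share a single copy. The motif was thus present in windows of all 4 genes that were called, of which 3 fell and 1 rose, and of 3 genes that were not. Some members have several windows, and the share per gene over all genes was not counted. To show the other genes that fell, the matches in the windows of S100A14 (position -14) and S100A16 (positions -191 and -178 from the upstream of its starts) are given with their surroundings on the minus strand, at chr1:153616324-153616349, chr1:153613313-153613338 and chr1:153613300-153613325, as the reverse complement CAGGTG. The window of the other S100A16 start also held a match, at position 45.
S100A14: gagctgagctCAGGTGagctggctcc
S100A16, farther match: cccagtgaccCAGGTGagaaaggcag
S100A16, nearer match: gtgagaaaggCAGGTGatagtccttc

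The E-box CATATG and the NF-kB motif were in 0 member windows (3.04% and 0.56% of all windows). CAGATG was in the S100A6 window (14.7% of all windows), the GRHL motif in the S100A9 window (1.73%) and the CEBP motif in the S100A11 window (10.5%). A match describes letters and does not show that a factor binds there, and a missing match says only that these letters are not in the window.

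Genes with the profile most like each called member were sought among the 18416 other genes. The measure was the root mean square distance between log2 values centred on each gene's mean over the 6 arrays. It includes the step between the groups, so the direction and rough size of the differences below follow from the choice and are no separate result. Nearest to S100A2 were SCIN, an actin-severing protein (distance 0.12), CLIP4 (0.12) and CXADR, a tight junction adhesion protein (0.14), which fell, with differences of -2.02, -1.69 and -1.74. Nearest to S100A14 were PERP, a desmosomal protein (0.17), SPINT1, an inhibitor of membrane serine proteases (0.17), and GPRC5A, an orphan receptor of lung epithelium (0.17), which fell, with differences of -1.43, -1.43 and -1.58. PERP read 8.60, 8.58 and 8.75 in the TwistER arrays and 9.30, 10.45 and 10.47 in GFP replicates 1 to 3. As PERP was chosen for its likeness to S100A14 on these same arrays, its low GFP replicate 1 follows from that choice. Nearest to S100A16 were the enolase ENO2 (0.07), the retinoic acid carrier CRABP2 (0.08) and P-cadherin CDH3 (0.08), of which ENO2 and CRABP2 fell, with differences of -0.94 and -1.02, and CDH3 had a difference of -0.96 (limma adjusted p = 0.0624). Nearest to S100A4 were the protocadherin PCDHB12 (0.05), the complement inhibitor CD59 (0.06) and the lipid carrier OSBPL6 (0.06), which rose by 0.72, 0.70 and 0.59.

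Among the annexins, membrane-binding proteins of which several are S100 partners, 3 of 11 measured fell, 1 rose and 7 did not pass, and their median difference was -0.07. ANXA3 read 7.97, 7.78 and 7.99 in the TwistER arrays, against 9.73, 9.37 and 9.27 in the GFP arrays, and fell 2.91-fold (-1.54 ± 0.14 SE, limma adjusted p = 0.000368). ANXA6, a large annexin of membrane repair and cholesterol traffic, read 7.12, 7.15 and 6.93 in the TwistER arrays, against 5.64, 5.90 and 5.89 in the GFP arrays, and rose 2.39-fold (1.26 ± 0.12 SE, limma adjusted p = 0.000475). Neither group overlapped the other in these 2 genes. ANXA7 fell 1.66-fold (-0.73 ± 0.10 SE, limma adjusted p = 0.00231) and ANXA9 1.60-fold (-0.68 ± 0.16 SE, limma adjusted p = 0.0316). ANXA9 kept its call when GFP replicate 1 was left out and lost it when any of the other 5 arrays was (limma adjusted p up to 0.126).

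ANXA2 and ANXA1 did not pass. ANXA2, the partner of S100A10, read 12.23, 12.17 and 12.11 in the TwistER arrays, against 12.05, 12.28 and 12.17 in the GFP arrays (0.00 ± 0.11 SE, limma adjusted p = 0.994). The within-array log2 difference S100A10 minus ANXA2 changed by 0.03 between the lines (exact permutation test, 2-sided p = 0.8). ANXA1, a partner of S100A11 and mediator of the glucocorticoid response, read 11.66, 11.52 and 11.53 in the TwistER arrays, against 11.97, 11.80 and 11.73 in the GFP arrays. The groups did not overlap, and the ANXA1 difference of -0.27 ± 0.11 SE had a limma adjusted p of 0.213. The within-array difference S100A11 minus ANXA1 averaged -0.17 ± 0.09 in TwistER and -0.48 ± 0.09 in GFP (SD, n = 3 each), a change of 0.30 with an exact permutation p of 0.1, which is the smallest that 3 against 3 arrays allow. For the calprotectin subunits, S100A8 minus S100A9 changed by 0.15 (exact permutation p = 0.2).

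Of 17 measured other binding partners 1 rose and 0 fell, with a median of -0.05. It was PLAT, tissue plasminogen activator, which S100A10 is known to bind at the cell surface, at 7.29, 7.59 and 7.53 in the TwistER arrays, against 6.44, 6.87 and 6.77 in the GFP arrays. PLAT rose 1.71-fold (0.78 ± 0.15 SE, limma adjusted p = 0.0125), and lost the call without TwistER replicate 2 or 3 (limma adjusted p = 0.0688 and 0.0633). AHNAK, the giant scaffold protein bound by the S100A10 and annexin A2 complex, had a difference of -0.09 ± 0.11 SE (limma adjusted p = 0.724).

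On the receptor side of secreted S100 proteins, 1 gene of 12 rose, 1 fell, and the median was 0.07. TLR4, the innate immune receptor through which S100A8 and S100A9 signal, read 7.61, 7.83 and 7.63 in the TwistER arrays, against 7.03, 6.89 and 6.78 in the GFP arrays. Every TwistER array was above every GFP array, and TLR4 rose 1.73-fold (0.79 ± 0.12 SE, limma adjusted p = 0.00439). ALCAM, an adhesion molecule reported to bind S100B, read 10.22, 10.27 and 10.36 in the TwistER arrays, against 11.18, 11.11 and 11.01 in the GFP arrays, and fell 1.76-fold (-0.82 ± 0.11 SE, limma adjusted p = 0.00202). AGER, the receptor for advanced glycation end products, did not pass (0.21 ± 0.14 SE, limma adjusted p = 0.464), nor did LY96, the co-receptor of TLR4 (0.16 ± 0.38 SE, limma adjusted p = 0.870). The TLR4 and ALCAM calls held with each array left out.

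**Figure D4:**
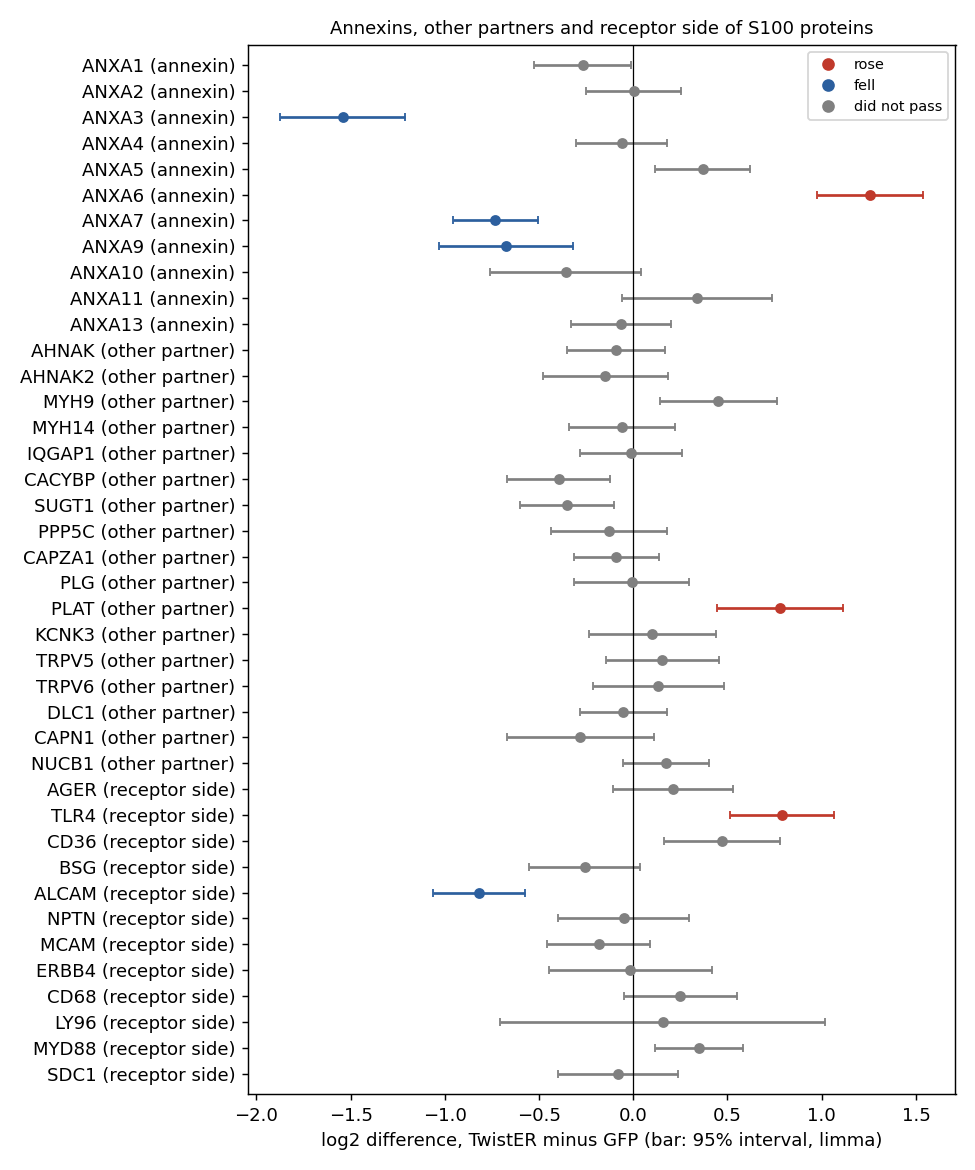
Log2 difference TwistER minus GFP (horizontal axis) of the measured annexins, other S100 binding partners and genes of the receptor side, with 95% intervals from limma as bars (n = 3 arrays each). ANXA6, PLAT and TLR4 rose, ANXA3, ANXA7, ANXA9 and ALCAM fell, and the S100A10 partner ANXA2 and the S100A11 partner ANXA1 did not pass.

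**Figure D5:**
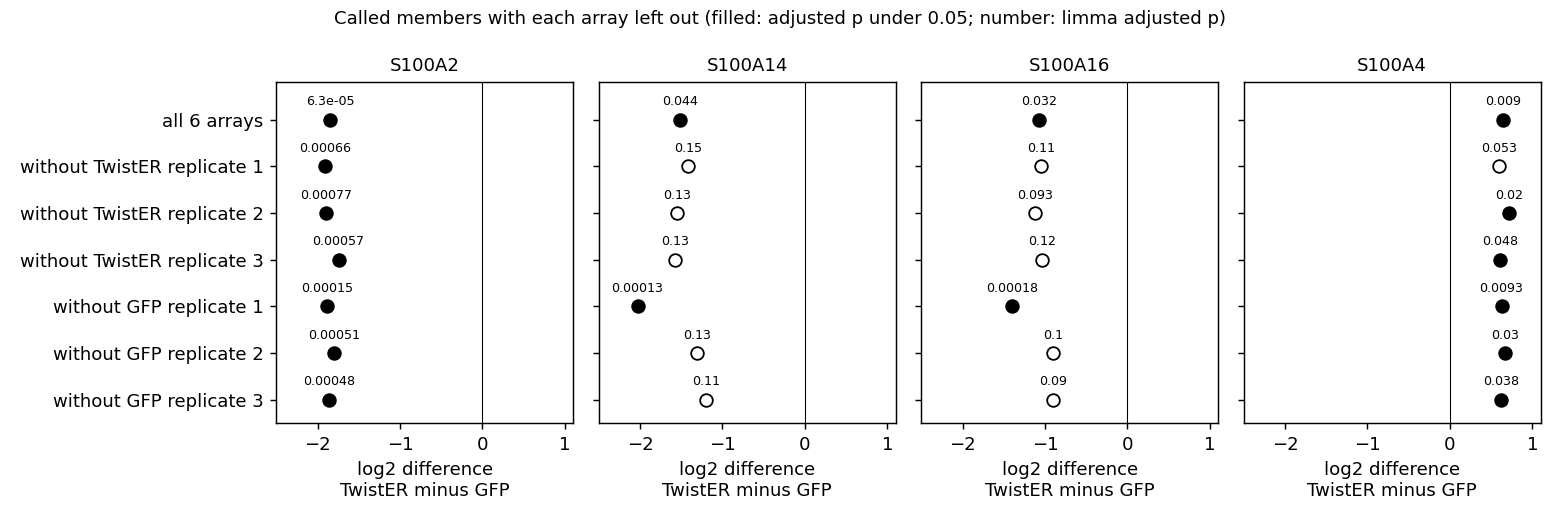
Log2 difference TwistER minus GFP (horizontal axis) of the 4 called S100 genes with all 6 arrays and with each array left out in turn, filled where the limma adjusted p, printed above the point, is under 0.05. S100A2 passes in every row, S100A4 in all but 1, and S100A14 and S100A16 pass with all arrays and without GFP replicate 1.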

How the data were processed

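Biotin-labelled RNA of 6 H358 samples was hybridised to Affymetrix arrays, per the labels' protocols. The authors deposited 1 log2 value per probe set and array, from RMA according to the submitters' processing notes. The RMA version and probe definitions are not stated in these sources. RMA equalises the distribution of the arrays, so a shift of the whole transcriptome would not show. Groups came from the treatment label, replicate numbers from the titles. All 6 columns were assigned.

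Of 33297 probe sets, 19460 had 1 gene symbol in the platform annotation, 1754 had several and 12083 were unnamed. The brightest per gene gave 18417 genes, without a filter. Tests used limma 3.58.1 in R 4.3.3 (lmFit, eBayes, no covariates, 2-sided; prior degrees of freedom were 4.44), with plots in Python 3.11.15 and matplotlib 3.10.9. Level means are of log2 values, and percentiles are over all probe sets of an array. RefSeq (GRCh38.p14) gave gene order and promoter windows. The script was tested on simulated data. Alternatives were 3 renormalizations, 2 brightness filters, other probe summaries, variance models, array weights, a replicate block and each array left out. The members, lists, motifs and naming rule were chosen with earlier results of these data known. Named were all members and other S100 genes, every called gene of each other list (the 6 largest where more passed, the largest where none did), ANXA1, ANXA2, AHNAK, AGER, TLR4 and the 3 nearest profiles of each called member; other genes given as examples were chosen after their values were seen.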

Additional observations from a re-analysis of the deposited data

How the results depend on the processing

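The 4 called S100 genes kept their calls under second quantile normalization, median centring, cyclic loess, both brightness filters, averaged probe sets, trended robust variance, array weights and the replicate block, so 1 rose and 3 fell there. With each array left out, 0 to 1 rose and 1 to 3 fell. Genes called overall numbered 831 to 2773 with an array left out and 3268 with array weights. With the replicate number as a block, 1592 genes, 1 rise and 3 falls were called, and the deviations of same-numbered arrays correlated at 0.14, 0.02 and 0.16, so the numbers were not taken as pairs; EFHD2 lost its call there (limma adjusted p = 0.0598). The block gave 1 call among the cornified envelope genes, as did array weights.

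Other counts that moved are totals of rises and falls. EF-hand sensors (1 call) had 3 under second quantile normalization, cyclic loess and the 50th percentile filter, 2 under median centring, the 25th percentile filter and trended robust variance, and 6 with array weights. Binding partners (1 call) had 2 under trended robust variance and 5 with array weights, receptors (2 calls) 5 with array weights, and myeloid and squamous markers (0 calls each) 1 each with array weights. Fibroblast markers (5 calls) had 3 under the 50th percentile filter, where fewer genes were tested. With an array left out, the ranges were 3 to 5 for annexins, 0 to 2 for binding partners, 2 to 3 for receptors, 0 to 1 for cornified envelope, myeloid and squamous genes, 0 to 5 for EF-hand sensors, 3 to 5 for fibroblast and 7 to 10 for epithelial markers, and 0 for the other S100, fused-type and lung lists. Within-array differences then ranged from 0.08 to 0.23 for S100A8 minus S100A9, from -0.03 to 0.12 for S100A10 minus ANXA2 and from 0.26 to 0.35 for S100A11 minus ANXA1. The cause was not tested. Low signal over background limits S100A8, S100A9, S100P and the TwistER level of S100A14. The lists with 0 calls in the main fit also held genes averaging below the 25th percentile of all values in both groups. These were 6 of 10 squamous, 5 of 12 other S100 and 5 of 35 cornified envelope genes. In the myeloid, fused-type and lung lists the counts were 4 of 12, 2 of 6 and 1 of 11, and 2437 of all 18417 genes lay that low.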

Other observations

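Other small EF-hand calcium sensors were mostly without a call. This list holds centrins, reticulocalbins, myosin light chains and neuronal sensors. Of its 22 measured genes, 1 fell, 0 rose and 21 did not pass in limma, with a median difference of -0.06. An unadjusted p under 0.05 in limma was seen in 8 of them, against 3969 of all 18417 genes. EFHD2, an actin-binding protein also called swiprosin, averaged 6.41 in TwistER and 6.86 in GFP and fell by 0.46 ± 0.11 SE (limma adjusted p = 0.0328). It kept the call only when GFP replicate 1 was the array left out, and otherwise had limma adjusted p up to 0.148. Differences over the list ran from -0.58 to 0.54.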
